A study of Homo sapiens with 8 samples.

Results

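Among 7543 H3K36me3 domains that could be matched between control and SETD2 knockdown HepG2 cells, 442 lost the largest share of their tag density. These greatest-loss pairs are described here one by one and as a set. A pair is a peak from the control list and a peak from the knockdown list whose overlap is 50% or more of each peak. Density is the number of tags in a peak per kb of its length and per 1000000 filtered tags of its condition. It is therefore relative to all tags of that condition. No outside scale was applied here, so the absolute amount of the mark lost was not measured. A pair was taken as a greatest-loss pair when the log2 ratio of knockdown over control density was -1.1 or less, so that the knockdown peak kept at most 46.7% of the control density. The 442 pairs are 5.86% of all matched pairs, 1.25% of the 35375 control peaks and part of a knockdown list of 23488 peaks. Because density chose them, their density ratios are a description and no test was made on them.

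The cells were HepG2, a human hepatocellular carcinoma line, stably expressing a short hairpin RNA (shRNA) against SETD2 or a non-specific control shRNA. Both shRNAs were carried by lentivirus produced in HEK293T cells, a human embryonic kidney line, and transduced HepG2 cells were selected with puromycin, so the controls also carry virus and resistance. For each shRNA there were 2 H3K36me3 immunoprecipitates and 2 inputs without antibody, 8 libraries in 4 groups. The labels do not say whether replicates were separate cultures, and the level of SETD2 in the cells was not analysed.

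Trimethylation of lysine 36 on histone H3 marks the bodies of transcribed genes. In human cells SETD2 places it while travelling with elongating RNA polymerase II, so that the mark usually builds up from the start of a gene towards its end and forms wide domains rather than narrow peaks. Proteins that read the mark are known for roles in keeping transcription from starting inside genes, in splicing and in DNA repair.

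The replicates had been merged ahead of peak calling, so each condition has a single list, values have no replicate spread, and the conditions could not be tested against each other. Without duplicates, 47880817 immunoprecipitated tags remained for the control and 67053273 for the knockdown. The inputs held 67158956 and 69095038 tags. Every interval below is an exact 95% interval for counting error only, Poisson for densities and binomial for shares and ratios. Outside all peaks the control had a density of 0.235 and the knockdown 0.337.

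Greatest-loss pairs were densely marked in the control. Their control density ran from 1.403 to 10.1 with a median of 3.33 (quartiles 2.69 and 4.25). In the knockdown it ran from 0.634 to 4.43 with a median of 1.401 (quartiles 1.15 and 1.74). The log2 ratio ran from -2.08 to -1.1, with a median of -1.22, so the median pair kept 42.9% of its control density. Most of the 442 lay close to the limit: 131 had a log2 ratio of -1.3 or less, 26 of -1.5 or less and 1 of -2 or less.

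In the knockdown most of the 442 were denser than the median of the other matched pairs, a smaller share than among other domains with a control density of 2 or more. The knockdown density of 380 of the 442 (86.0%) was above 0.984, the median of the 7101 other pairs. Those other pairs had a median control density of 1.45 and a median log2 ratio of -0.56. A closer comparison set is the 1634 other pairs with a control density of 2 or more, called dense pairs here. Dense pairs had a median control density of 2.53 and a median knockdown density of 1.45, so the greatest-loss pairs started higher and ended at about the same level. Of the dense pairs 1627 (99.6%) lay above 0.984 in the knockdown. Within the 442, knockdown density rose with control density (Pearson r = 0.960, Spearman rho = 0.960 over 442 pairs), a description of pairs that share the same pooled libraries and a limit on their ratio. In the plot of paired densities the 442 lie in a narrow band below the limit.

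**Figure D1:**
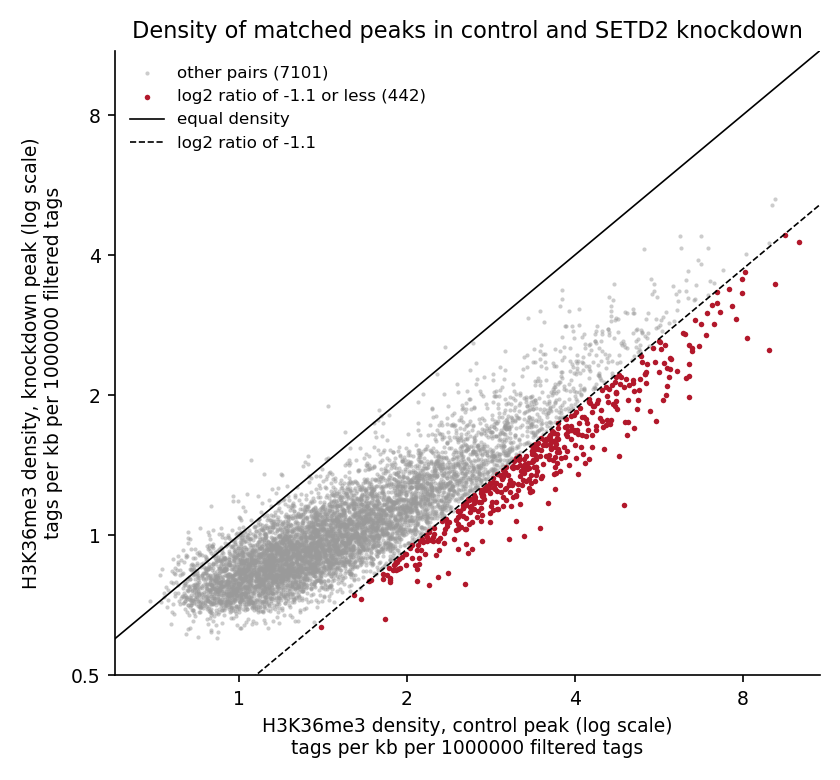
Density of each matched pair in the control (x axis) and in the SETD2 knockdown (y axis), both in tags per kb per 1000000 filtered tags on log scales. Greatest-loss pairs (442) are set apart by colour from the other 7101 pairs, and they span control densities of 1.403 to 10.1.

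The rule and the density at which peaks could be called together set who could be chosen. The lowest knockdown density of any matched pair was 0.602. A pair would need a control density of 1.29 or more to pass the limit at that level, and 2721 of the 7543 pairs (36.1%) lay under it. None of the pairs in the lowest 4 deciles of control density, all under 1.35, were greatest-loss pairs. A control domain with no knockdown peak over it, or with one of too little overlap, had no match and is not among the 442.

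The limit cut through a continuous range of ratios. The 3 pairs just inside it were chr16:18536855-18538904, chr18:12671531-12675894 and chr17:55335173-55359949, each with a log2 ratio within rounding of -1.1. Just outside were chr3:185383504-185395066, chr1:39457678-39475030 and chr19:37616905-37620567, likewise -1.1 when rounded. The pair on chromosome 16 rested on 168 control and 65 knockdown tags, and its interval ran from -1.54 to -0.68. For 232 of the 442 pairs the whole interval lay at or below the limit. The other 210 intervals crossed it, as did those of 705 pairs that were not chosen.

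The lowest ratio belonged to chr19:6700482-6720772, a control domain of 20.3 kb (positions are in hg19). It held 4771 control tags and 801 knockdown tags, giving a control density of 4.91 (interval 4.77 to 5.05) and a knockdown density of 1.16 (1.08 to 1.25). The log2 ratio was -2.08 (interval -2.19 to -1.97), so the knockdown density was 23.7% of the control density. The matched knockdown peak covered only 50.6% of the control domain, its summit lay 10.5 kb from the control summit, and 3 knockdown peaks in all lay on the domain. With their tags and lengths summed the log2 ratio was -1.92.

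The second lowest ratio, -1.83 (interval -1.90 to -1.77), came from a pair of nearly equal bounds. This was chr6:138188487-138204796, where the knockdown peak covered 98.0% of the control peak. The domain held 6962 control and 2681 knockdown tags, with a control density of 8.91 (8.71 to 9.13) and a knockdown density of 2.50 (2.41 to 2.60). The nearest other control peak was 206 kb away. Here the mean density was lower over nearly the same stretch, whereas the domain on chromosome 19 was also shorter in the knockdown.

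The other 8 of the 10 lowest ratios lay between -1.74 and -1.62. On chromosome 19, chr19:52431454-52449949 had 3.47 against 1.04 (log2 ratio -1.74, interval -1.87 to -1.62). It carried 2 knockdown peaks, and with both summed its log2 ratio was -1.52. On chromosome 14, chr14:95048851-95060525 had 3.25 against 0.997 (-1.70, -1.86 to -1.55). The single matched pair on chromosome Y, chrY:15020712-15031079, had 2.55 against 0.784 (-1.70, -1.89 to -1.52). In these 3 domains the knockdown density was near or below the median of the other pairs, 0.984, and the knockdown peak covered 51.1%, 55.9% and 54.1% of the control peak. In chr9:111628641-111647598 density was 4.81 against 1.48 (-1.70, -1.78 to -1.62). The 6.42 kb domain chr20:5094117-5100531 had 6.401 against 1.99 (-1.69, -1.81 to -1.57). Both kept their bounds, with 89.6% and 90.7% of the control peak covered.

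A pair of neighbouring domains on chromosome 8, separated by 41 bp, both ranked among the 10. The first, chr8:12939659-12954178, had 5.61 against 1.76 (-1.67, -1.76 to -1.59). The second, chr8:12954220-12975673, had 3.05 against 0.979 (-1.64, -1.76 to -1.52) and was covered over 51.7% of its length by the matched peak. With both of its knockdown peaks summed, the ratio of the second domain was -1.40. The tenth, chr17:38543455-38573933, was a 30.5 kb domain with 11898 control and 5282 knockdown tags, a density of 8.15 against 2.65 and a log2 ratio of -1.62 (-1.67 to -1.57). It is also among the 10 with the most control tags. In 5 of these 10 lowest pairs the matched peak covered 50.6 to 55.9% of the control peak, and in the other 5 it covered 89.6 to 98.0%. For 4 of the 10 the knockdown peak had a false discovery rate (FDR) above 50% in the authors' deposited table.

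The 10 greatest-loss pairs with the most control tags give the most precise ratios. They had control densities of 4.30 to 8.15 and knockdown densities of 1.84 to 3.10, so none was near background in the knockdown. The largest by tags, chr1:182809647-182858333, was 48.7 kb wide in both conditions. It held 13245 control and 8504 knockdown tags, a density of 5.68 (5.59 to 5.78) against 2.60 (2.55 to 2.66) and a log2 ratio of -1.13 (-1.16 to -1.09). Its knockdown peak was the widest of the greatest-loss pairs, and its interval crosses the limit. The domain thus kept its whole extent at 45.8% of its density.

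Of the remaining 8 of these 10, the lowest ratios were -1.56 (-1.61 to -1.503) at chr1:24970566-25002323 and -1.54 (-1.60 to -1.49) at chr14:21818042-21851325. Knockdown peaks covered 95.6% of each control peak. On chromosome 17, chr17:45727971-45763778 had 13118 control and 7101 knockdown tags and a log2 ratio of -1.302 (-1.34 to -1.26). Also on chromosome 17, chr17:1553267-1587659 had -1.24 (-1.29 to -1.19). In these 4 domains the called bounds were nearly the same and the mean density lower.

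At chr20:17921035-17949642, the ratio was -1.27 (-1.33 to -1.22) and the knockdown peak spanned 71.3% of the control peak. The ratio was -1.22 (-1.27 to -1.17) at chr19:41771704-41814436. At chr2:171786707-171825833, 2 knockdown peaks lay on the control peak and the ratio of the matched one was -1.18 (-1.24 to -1.12). The last of the 10, chr10:120790966-120839695, had -1.16 (-1.202 to -1.12). The plot of these named pairs shows both densities of each with their counting intervals, as a description of pairs chosen on that gap.

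**Figure D2:**
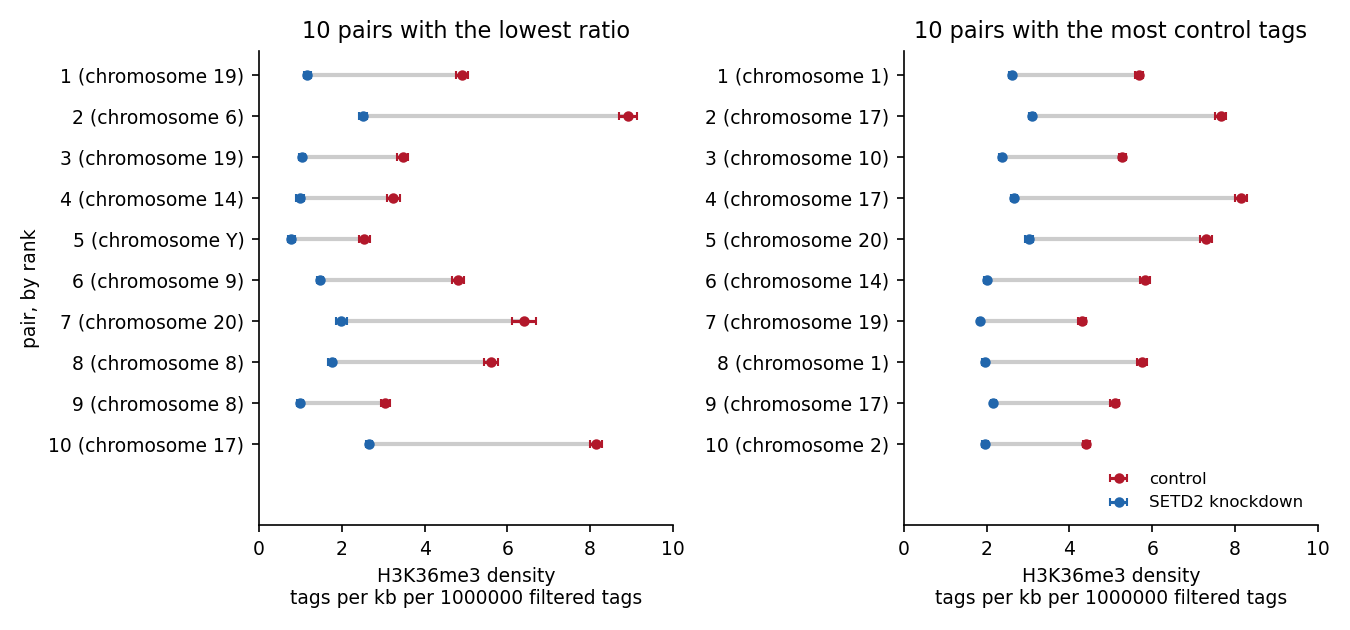
H3K36me3 density (x axis, tags per kb per 1000000 filtered tags) in control and SETD2 knockdown for the 10 greatest-loss pairs with the lowest ratio (left) and the 10 with the most control tags (right), by rank on the y axis. Bars are exact Poisson 95% intervals of each density. Control densities run from 2.55 to 8.91 on the left and from 4.30 to 8.15 on the right, and the gap to the knockdown density is what chose these pairs.

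The greatest-loss pairs with the highest and the lowest control density had log2 ratios of -1.24 and -1.14. The pair with the lowest ended close to 0.602, the lowest knockdown density of any matched pair. The limit thus left its ratio a narrow range, and the 2 ratios are not compared. The densest domain, chr14:39644283-39655834, had 10.1 (9.85 to 10.4) in the control, the highest of any matched pair, and 4.28 (4.13 to 4.43) in the knockdown, a log2 ratio of -1.24 (-1.31 to -1.18). Control peaks covered 29.3 kb of the 250 kb on each side of it and knockdown peaks none. The thinnest, chr19:42866683-42869377, had 1.403 (1.21 to 1.62) against 0.634 (0.507 to 0.785), with 181 and 85 tags and a log2 ratio of -1.14 (-1.53 to -0.77). Over the 442 the ratio was somewhat lower where control density was higher (Pearson r = -0.309, Spearman rho = -0.346) and bore little relation to control width (r = 0.021, rho = -0.050). These are correlations across pairs chosen on the ratio and are given as a description.

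Greatest-loss pairs made up a growing share of matched pairs as control density rose. They were 1.86% of pairs in the seventh decile of control density, 5.17% in the eighth, 14.5% in the ninth and 36.7% in the tenth. The tenth decile began at a density of 2.99 and held 277 of the 442. Control density is part of the ratio that chose the pairs, so this rise is not independent of the rule. Width is not in the rule by itself, but it divides the tags in both densities. Shares by control width went from 0.398% in the narrowest decile to 21.6% in the widest, which began at 16.8 kb.

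Wide domains were also the dense ones, so both measures were crossed. At a control density of 3 to 4, greatest-loss pairs were 25.2% of pairs 5 to 10 kb wide, 36.9% at 10 to 20 kb and 34.7% at 20 kb or more. At a density of 4 to 5 those shares were 21.6% (11 of 51, interval 11.3 to 35.3%), 46.5% (33 of 71, 34.5 to 58.7%) and 59.5% (25 of 42, 43.3 to 74.4%). Of these 3 classes the share was lowest at 5 to 10 kb. Pairs are not replicates and width enters both densities, so the intervals do not decide between classes, and the difference was not tested. Of domains at 5 to 6, 4 of 21 (19.0%, 5.45 to 41.9%) were greatest-loss pairs at 5 to 10 kb, 19 of 29 (65.5%, 45.7 to 82.1%) at 10 to 20 kb, and 10 of 22 (45.5%, 24.4 to 67.8%) at 20 kb or more. At that density the share thus did not keep rising with width. The highest density did not make a domain a greatest-loss pair: at 6 or more, 31 of 58 pairs at any width (53.4%) were chosen. Control density of 2 or more was found in 416 of the 442 (94.1%) and in 23.01% of the other pairs.

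**Figure D3:**
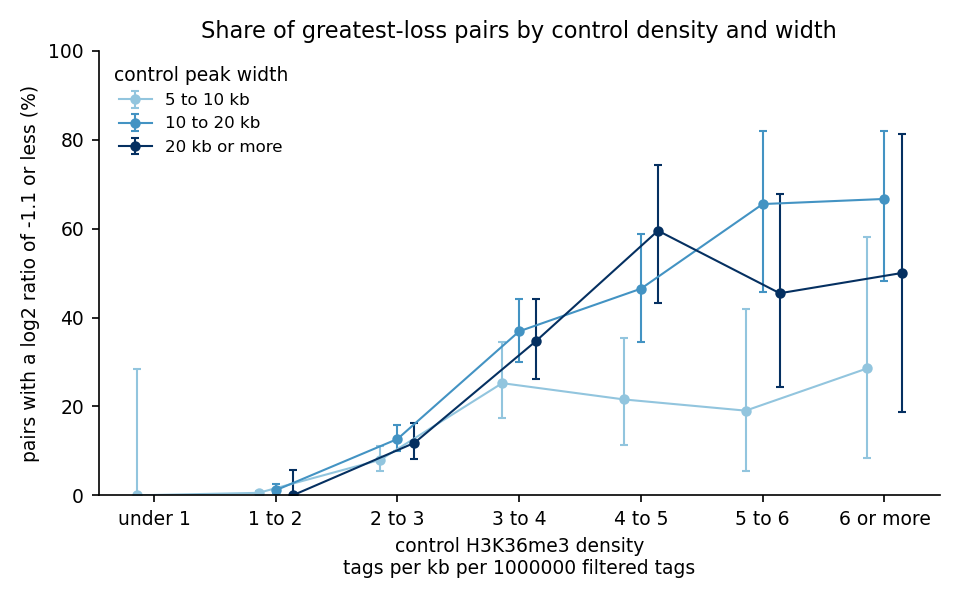
Share of matched pairs that are greatest-loss pairs (y axis, in percent), by control density (x axis, tags per kb per 1000000 filtered tags), with a line for each of 3 classes of control width and exact 95% binomial intervals, for classes of 10 pairs or more. Shares are 0 or near 0 at a density under 2, and from 4 upwards the line for 5 to 10 kb lies below the lines for wider domains.

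Taking off the density found outside peaks in each condition left the 442 at a median log2 ratio of -1.54, that is 34.5% of control density. All 442 still met the limit on this scale, but so did 1954 of the other pairs (27.5%), whose median was -0.92. The knockdown had the higher density outside peaks, so the step lowers every ratio, and thin domains most. Membership at this limit therefore rests on comparing densities with that background left in.

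The knockdown peak of a greatest-loss pair mostly lay within the bounds of the control domain. Control widths ran from 1.82 to 52.4 kb with a median of 14.02 kb, and knockdown widths had a median of 11.1 kb. The knockdown peak was narrower in 399 of the 442 (90.3%, interval 87.1 to 92.9%) and lay wholly inside the control peak in 336 (76.0%, 71.8 to 79.9%). Among dense pairs those shares were 86.2% and 61.0%. The median knockdown peak covered 86.1% of its control peak, against 85.4% in dense pairs and 78.3% in all other pairs. A narrower peak raises density for the same tags, so counting tags without length gave lower ratios, with a median of -1.49 over the 442.

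Nearly equal bounds were found in a minority of them, in a share near that of dense pairs. Overlap was 90% or more of each peak in 183 of the 442 (41.4%, interval 36.8 to 46.2%). That held for 36.9% of dense pairs and 19.4% of all other pairs. Among all pairs with a control density of 2 or more, the share of greatest-loss pairs was 21.2% where the knockdown peak covered 50 to 60% of the control peak, 18.5% at 60 to 75%, 18.0% at 75 to 90% and 22.3% at 90% or more. The median ratio of the greatest-loss pairs was -1.22 at 50 to 60% and -1.23 at 90% or more. How much of the domain was retained thus bore little relation to being chosen at that density.

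The control domain was broken up in some. More than 1 knockdown peak lay on the control peak in 99 of the 442 (22.4%, 18.6 to 26.6%), against 19.6% of dense pairs and 11.8% of all other pairs. Of these 99, 85 had 2 knockdown peaks, 10 had 3, 2 had 4 and 2 had 5. Every knockdown summit lay inside its control peak. Summits were within 1 kb of each other in 262 (59.3%, 54.5 to 63.9%), against 71.9% of dense pairs and 77.4% of all other pairs, and the median distance was 0.590 kb. Of the 442, 113 (25.6%) were 20 kb or wider in the control, against 21.4% of dense pairs and 5.83% of all others.

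The authors' own values for these peaks serve only to order or filter peaks within each list. Fold enrichment over the local input background had a median of 15.6 in the control peaks and 5.34 in the knockdown peaks of the 442. In the control list 370 of them (83.7%) fell in the top 10% of fold enrichment, and 186 (42.1%) did so in the knockdown list. Those shares were 77.4% and 55.1% among dense pairs and 21.8% and 17.5% among all other pairs. The control share goes with the control density that the rule used. The FDR was 5% or less in 440 of the control peaks and in 115 of the knockdown peaks (26.0%, 21.99 to 30.4%), against 37.7% of dense pairs in the knockdown.

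As a set the 442 held a small and changing part of the mark. Their peaks covered 7.01 Mb in the control and 5.67 Mb in the knockdown. They took up 1273981 control tags, 2.66% of all filtered tags, and 624707 knockdown tags, 0.932%. As a share of the tags inside peaks they went from 6.33% in the control to 7.30% in the knockdown, and as a share of covered length from 3.07% to 5.12%. Greatest-loss pairs thus held a larger part of the shorter knockdown list than of the control list. Each nevertheless kept at most 46.7% of its own density. The rise in covered length follows from the matching rule. Every pair had a knockdown peak over 50% or more of its control peak, while the whole knockdown list covered 48.4% of the control length. Other matched pairs also kept most of their width, with a median of 80.6% against 86.1% in the 442. List shares were not computed for those other pairs, so whether the rise was particular to the 442 was not tested.

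Shares differed widely between chromosomes. On chromosome 20, 17 of 68 matched pairs (25%, 15.3 to 37.0%) were greatest-loss pairs, and on chromosomes 14, 2 and 16 the shares were 15.9%, 15.2% and 15.2%. Chromosome 1 had the most matched pairs, 1157, but 27 greatest-loss pairs (2.33%, 1.54 to 3.38%). These intervals cover counting error only, pairs on a chromosome are not replicates, and the differences between chromosomes were not tested. Shares were 2.48% on chromosome 3, 2.61% on chromosome 9 and 0.641% (1 of 156) on the X chromosome. Chromosomes 4, 6, 19 and 17 had 10.1%, 9.76%, 9.24% and 8.80%.

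Part of this order went with density. Among pairs with a control density of 2 or more, greatest-loss pairs were 40.8% on chromosomes 4 and 14 and 31.2% on chromosome 2. Next came chromosomes 20, 15 and 16 with 30.2%, 28.6% and 28.0%, while chromosome 17 had 17.9%. The shares were 10.4% on chromosome 1, 10.5% on chromosome 9, 10.8% on chromosome 3 and 4.17% on the X chromosome. Chromosome 4 moved up to share the first place, while chromosomes 1, 3, 9 and X stayed at the low end.

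HepG2 is known to carry extra copies of chromosomes 2, 14, 16, 17 and 20, and more copies give more tags at a domain in both conditions. Those 5 chromosomes held 151 of 1086 pairs (13.9%, 11.9 to 16.1%), against 291 of 6457 (4.51%, 4.01 to 5.04%) elsewhere, or 34.2% of greatest-loss pairs and 14.4% of matched pairs. Median control density was 1.95 there and 1.43 elsewhere. Among pairs with a control density of 2 or more the shares were 143 of 525 (27.2%, 23.5 to 31.3%) and 273 of 1525 (17.9%, 16.01 to 19.9%). The 5 chromosomes were not alike at that density. Chromosome 17 had 29 of 162 (17.9%), the same as elsewhere, while chromosomes 2, 14, 16 and 20 had 28.0 to 40.8%. Outside the 5, chromosome 4 had 20 of 49 (40.8%). Copy number was not measured here, and its part in these shares was not tested.

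**Figure D4:**
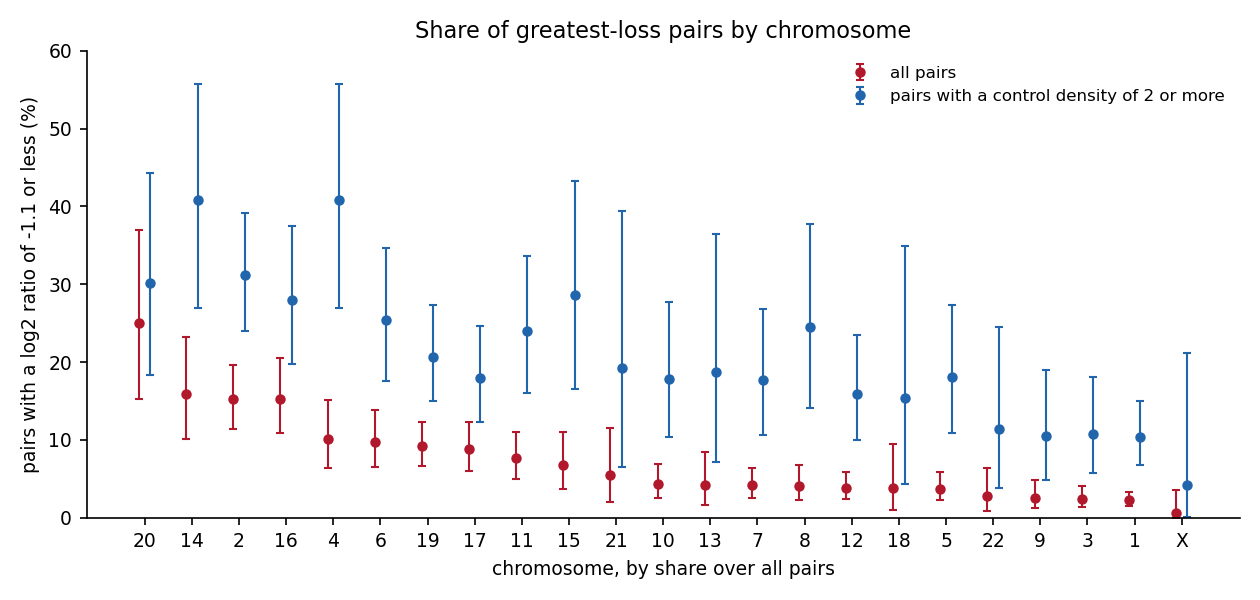
Share of pairs that are greatest-loss pairs (y axis, in percent) on each autosome and the X chromosome (x axis), over all matched pairs and over those with a control density of 2 or more, with exact 95% binomial intervals. Over all pairs chromosome 20 has the highest share of the autosomes, 25%, and chromosome 1 the lowest, 2.33%.

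Most greatest-loss pairs, 300 of 442, had no other within 250 kb. Joining those less than 250 kb apart gave 356 groups, of which 56 had 2 or more and held the other 142 (32.1%). A greatest-loss pair also lay within 250 kb of 18.8% of dense pairs and 12.2% of all other pairs. There were 15 groups of 3 or more, with 60 greatest-loss pairs between them, and in 6 of the 15 every matched pair inside was a greatest-loss pair. Neighbouring domains can belong to 1 gene or to adjacent genes, and gene positions were not used here.

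The most complete group was on chromosome 16, chr16:18536855-18911203, where all 7 matched pairs were greatest-loss pairs with log2 ratios of -1.60 to -1.1. Their control densities ran from 1.71 to 6.67 and their knockdown densities from 0.795 to 2.56. Control peaks covered 42.0% of this stretch of 374 kb and knockdown peaks 18.6%, and 10 of its 20 control peaks overlapped a knockdown peak. Over the whole lists knockdown peaks covered 48.4% of the length that control peaks covered, so the covered length kept in this stretch is near that of the genome as a whole.

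Chromosome 19 held several such groups. It is known for its clusters of zinc finger genes, but whether these groups lie in them was not examined. Among its pairs with a control density of 2 or more, 37 of 179 (20.7%) were greatest-loss pairs, against 416 of 2050 over all chromosomes. In chr19:52431454-52641882 all 6 matched pairs were greatest-loss pairs, with log2 ratios of -1.74 to -1.15, and peaks covered 72.3% of it in the control and 58.8% in the knockdown. In chr19:53878869-53998108 all 4 were, at -1.295 to -1.11. The longest group by span, chr19:12008308-12741267, held 7 greatest-loss pairs among 14 matched pairs over 733 kb, at -1.49 to -1.1. In the last of these groups coverage went from 36.0% to 17.3%.

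Groups made up of greatest-loss pairs alone were also found on chromosomes 2 and 4. All 4 matched pairs of chr2:219265295-219534989 were greatest-loss pairs at -1.28 to -1.16, although peaks covered slightly more of it in the knockdown (46.1%) than in the control (42.5%). In chr2:201677105-201752394 the 3 pairs had ratios of -1.49 to -1.36, and coverage was 55.1% and 51.5%. In chr4:155457488-155533268 the 3 ratios lay between -1.35 and -1.296. On chromosome 14, chr14:94843081-95091188 held 3 greatest-loss pairs among 4 matched pairs, with the low ratios of -1.70 to -1.39, and its coverage went from 23.9% to 12.3%. Loss of density and loss of covered length were therefore not the same thing in these groups.

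Peaks around greatest-loss pairs, which the rule did not use, were measured over 250 kb on each side. Control peaks covered 43.0 Mb of these flanks and knockdown peaks 20.1 Mb, which is 46.7% of the control coverage and close to the 48.4% over the whole lists. The same share was 52.9% around dense pairs, 56.0% around all other pairs and 79.4% around the 303 pairs whose density changed by 0.1 or less on the log2 scale. Of the 5930 flanking control peaks 2402 (40.5%) overlapped a knockdown peak, against 45.9%, 47.6% and 61.7% around those 3 sets. Flanks of neighbouring pairs overlap, so these shares carry no interval and the differences were not tested.

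Distance from the domain changed the share little. Around greatest-loss pairs knockdown coverage was 42.5% of control coverage in the first 10 kb, 46.6% at 25 to 50 kb, 45.9% at 100 to 250 kb and 44.9% at 500 to 1000 kb. Around dense pairs it was 51.5% in the first 10 kb and 51.3% at 500 to 1000 kb. For nearly unchanged pairs it was 92.5% in the first 10 kb and 66.5% at the largest distance.

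**Figure D5:**
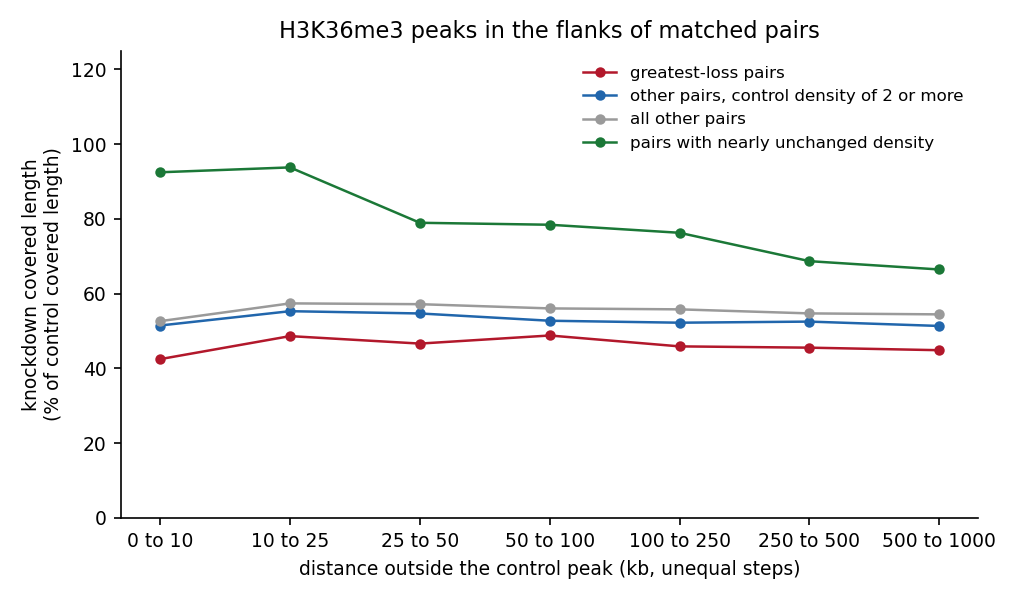
Length covered by knockdown peaks as a percent of that covered by control peaks (y axis), by distance from the edge of the control peak in kb (x axis), around greatest-loss pairs, dense pairs, all other pairs and nearly unchanged pairs. The line of the greatest-loss pairs stays between 42.5% and 48.8% and is the lowest at each distance plotted.

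The flanks were also read by chromosome. On chromosomes 2, 14, 16, 17 and 20 the flanks of greatest-loss pairs kept 42.0% of control coverage, those of dense pairs 43.5%, those of all other pairs 44.4% and those of 18 nearly unchanged pairs 42.9%. On the remaining chromosomes the shares were 49.4%, 56.1%, 58.0% and 81.9%. The 5 chromosomes thus had low coverage in the knockdown around matched pairs of each kind.

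Matched pairs next to greatest-loss pairs also had low ratios. Within 250 kb, 370 of the 442 (83.7%) had at least 1 other matched pair, against 89.7% of dense pairs and 91.9% of all other pairs. The neighbours of the 442 numbered 1007. Of them 142 (14.1%) were greatest-loss pairs themselves, against 6.21% of the neighbours of dense pairs and 5.07% of those of all other pairs. The 865 neighbours that were not greatest-loss pairs had a median log2 ratio of -0.69, while the matching medians were -0.61 and -0.55. Neighbours that the limit did not choose were denser too, with a median control density of 1.68 against 1.55 and 1.43, and the part of density in these ratios was not tested.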

How the data were processed

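H3K36me3 ChIP-seq and input libraries from HepG2 cells were grouped by shRNA and antibody as the labels give them. Per the submitters' processing notes, reads were handled with FastQC 0.11.5 and Bowtie 1.1.2, on hg19. Peaks were called with MACS 1.4.2 on pooled replicates against pooled input at a p-value limit of 1e-05, with 1 duplicate tag kept per position and an effective genome of 2.7 Gb, per the file headers. The deposited tag counts per peak are whole numbers and not normalized. The deposited score is minus 10 times the log10 p-value (a −log10 scale), the deposited fold enrichment is a ratio over the local input background, and the deposited FDR is in percent; these only order or filter peaks of the same list. The deposited shorter lists, peaks with an FDR of 5% or less, were not used.

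From the counts, lengths and header totals, densities and log2 ratios were computed for pairs overlapping by 50% or more of each peak. As an alternative, tags and lengths of all knockdown peaks on a control peak were summed. Flanks were 250 kb on each side without the control peak itself. Densities have exact Poisson intervals, ratios and shares Clopper-Pearson intervals, at a level of 95%. With 1 pooled list per condition, no replicate could be left out and no test between conditions could be made. The members and lists were chosen with earlier results of these data known. Pairs were named by rule: the 10 with the lowest ratio, the 10 with the most control tags, those with the highest and the lowest control density, and the 3 on each side of the limit. Groups of neighbouring pairs were named after their values were seen. A planned count by gene was not run, since gene coordinates and sequence on hg19 were not used here. Python 3.11.15, pandas 2.3.3, NumPy 2.4.6, SciPy 1.17.1 and matplotlib 3.10.9 were used, and the steps were tested on simulated data.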

Additional observations from a re-analysis of the deposited data

How the results depend on the processing

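All intervals printed with the results cover counting error only, and no spread between replicates was available. Recomputed medians were judged against ranges taken from the order of the values over pairs, which are not replicates. No paired analysis was possible because peaks were called on merged replicates, which carry no replicate numbers. The median ratio of neighbouring pairs stayed below 0 under every alternative that was run. The median ratio of the chosen pairs is below 0 by the rule, and counts, shares and densities cannot change sign. Of 100 recomputed values, 51 stayed within their interval or range or, for the number of pairs, within 1.5 times the reported count. Knockdown coverage of the flanks stayed within a range of 43.5 to 49.8% under every alternative run. That range came from the spread over pairs, whose flanks overlap, so it is a guide and not a counting interval. Summing all knockdown peaks on a control peak, and the choice of flank size, moved none of the summary values. For the 10 pairs with the lowest ratio, 21 of 40 recomputed ratios moved beyond their interval, all staying below 0. The causes of the shifts below were not tested beyond the construction of each alternative.

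The number of greatest-loss pairs, 442 here, was 772 at an overlap of 30%, 183 at 90%, 775 at a limit of -1.0, 242 at -1.2, 115 with an FDR of 5% or less in both lists, 3069 with tags not divided by length, 2396 with the density outside peaks taken off and 232 with the whole interval at or under the limit. As a share of matched pairs these were 6.55%, 11.7%, 10.3%, 3.21%, 13.5%, 40.7%, 31.8% and 3.08%. That share was also 7.13% at an overlap of 70%, 6.97% at a score of 100 or more in both lists and 6.64% with at least 100 tags in each peak. The median control density was 2.85 at an overlap of 30%, 3.65 at 70%, 4.198 at 90%, 3.04 and 3.67 at the limits of -1.0 and -1.2, 4.50 under the FDR limit, 2.91 with all tags as depth, 1.78 without length, 1.77 without background and 3.85 for whole intervals. The median log2 ratio was -1.13 and -1.305 at the limits of -1.0 and -1.2, -1.38 without length, -1.27 without background and -1.31 for whole intervals.

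The median ratio of neighbouring pairs, -0.75 here, was -0.87 at an overlap of 90%, -0.71 and -0.80 at the limits of -1.0 and -1.2, -0.93 under the FDR limit, -0.79 under the score limit, -0.78 with at least 100 tags, -1.02 without length, -0.99 without background and -0.78 for whole intervals. The share on chromosomes 2, 14, 16, 17 and 20, 34.2% here, was 28.9% and 38.8% at overlaps of 30% and 90%, 39.7% at the limit of -1.2, 20.4% without length, 22.1% without background and 39.7% for whole intervals. The last 2 measures and the summed peaks were added after the data were seen.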

Other observations

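Many knockdown peaks of greatest-loss pairs held many tags and yet had a high FDR in the authors' table. Of the 442, 70 (15.8%, interval 12.6 to 19.6%) had 1000 knockdown tags or more and an FDR above 50%, against 7.41% of dense pairs and 2.34% of all other pairs. At chr14:21818042-21851325, 4260 knockdown tags came with an FDR of 87.0% in the authors' deposited table, and at chr19:41771704-41814436, 5228 tags came with 83.0%. Among the 10 with the most control tags, 6 knockdown peaks had an FDR above 50%. A filter on that FDR would leave 115 of the 442, so greatest-loss domains with well-measured densities would not pass it.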
